A study of Homo sapiens with 12 samples.

Results

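Regions of open chromatin that lost their ATAC-seq peak when wild-type (WT) and Y537S estrogen receptor alpha (ER) were induced with doxycycline (Dox) were examined in MDA-MB-453 cells, an established human breast cancer line. The regions were chosen by their measured peaks: a merged region had to hold a peak in the untreated and estradiol (E2) libraries of both the WT and the Y537S line, and none in the Dox and Dox+E2 libraries of both. Of 166523 merged regions on chromosomes 1 to 22 and X, 976 met this rule (0.586%). The presence and the strength of peaks in these 8 libraries are therefore a description of the choice, whereas the 4 libraries of the K303R line played no part in it.

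In ATAC-seq a transposase cuts accessible chromatin and inserts sequencing adapters, so a peak marks a stretch where cuts pile up. Each of 3 engineered lines carried an ectopic, Dox-inducible ER, which was WT, Y537S or K303R, and all lines were grown in medium with fetal bovine serum. Each line was left untreated, given 1 nM E2, given 2 ug/mL Dox, or given both for 2 days, with 1 library per line and treatment and so no replicates. A line that lacks the inducible receptor is not analysed here, so Dox itself and the receptor it induces cannot be told apart.

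ER is a nuclear receptor that binds estrogen response elements, mostly in enhancers far from promoters, and recruits coactivators that open chromatin. Receptor induction can also be accompanied by loss of accessibility elsewhere, at sites used by other transcription factors. Y537S alters the ligand-binding domain and is known to be active without hormone, whereas K303R changes a residue of the hinge.

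Promoters were rare among the regions, so those few are shown first, because they are the stretches whose sequence could be read. Of 22012 promoter windows in the RefSeq table for GRCh38.p14 (250 bases before to 50 after a gene start), 7 overlapped a region closed with Dox, and the bases before the gene start that lay inside the region are printed 5′ to 3′ on the strand of the gene. Capitals mark the SP motif GGGCGG on either strand, and the genes have varied roles: CX3CR1 encodes the fractalkine receptor, HRK a BH3-only cell death protein, PGC the stomach enzyme precursor progastricsin, RHOH a small GTPase of blood cells and POGLUT3 a protein O-glucosyltransferase.
CX3CR1 (chr3:39280442-39280512, minus strand): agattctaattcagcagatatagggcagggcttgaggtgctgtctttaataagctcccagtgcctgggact
GRAMD2B (chr5:126464900-126465149, plus strand): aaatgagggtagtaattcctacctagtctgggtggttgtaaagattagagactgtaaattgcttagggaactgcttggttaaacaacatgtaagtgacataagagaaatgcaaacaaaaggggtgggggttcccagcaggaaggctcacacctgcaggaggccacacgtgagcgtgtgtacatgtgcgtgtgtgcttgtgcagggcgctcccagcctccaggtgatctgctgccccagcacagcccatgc
HRK (chr12:116881442-116881524, minus strand): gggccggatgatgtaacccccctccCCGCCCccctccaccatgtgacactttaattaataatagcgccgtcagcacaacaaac
LENEP (chr1:154993336-154993434, plus strand): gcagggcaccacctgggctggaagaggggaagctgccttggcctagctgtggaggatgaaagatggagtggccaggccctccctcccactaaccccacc
PGC (chr6:41747578-41747647, minus strand): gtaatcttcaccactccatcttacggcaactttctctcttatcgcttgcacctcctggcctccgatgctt
POGLUT3 (chr11:108498385-108498417, minus strand): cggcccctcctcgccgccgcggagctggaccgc
RHOH (chr4:40193413-40193662, plus strand): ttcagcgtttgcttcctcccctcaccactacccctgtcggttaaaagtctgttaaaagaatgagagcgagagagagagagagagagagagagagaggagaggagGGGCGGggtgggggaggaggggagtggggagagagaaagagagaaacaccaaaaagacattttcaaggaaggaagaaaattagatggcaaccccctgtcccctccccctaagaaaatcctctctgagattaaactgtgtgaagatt

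These 7 promoters were poorer in G and C than promoters at large. Their 300-base windows had a median GC content of 53.3% and a median of 6 CG dinucleotides, against 66% and 27 in the 10252 promoters that overlapped a region kept open in all 8 WT and Y537S libraries, and 62.3% and 21 in all 22012. The SP motif was in 3 of 7 windows (42.9%), against 74.3% of the kept and 56.3% of all promoters. The estrogen receptor monomer motif AGGTCA (either strand) was in the PGC and RHOH windows, 28.6% of 7 against 11.9% of all, and the full element GGTCANNNTGACC in none of the 7 against 0.0363% of all. The AP-1 motif TGANTCA was in the LENEP window alone (14.3% against 6.16% of all). None of these AGGTCA and AP-1 matches lay in the bases printed above. For PGC and LENEP those bases are all that the region shared with the window. None of the 7 windows held the FOXA letters TGTTTAC, which stand in 2.86% of all promoters, or the letters AGATAA of GATA factors, which stand in 7.90%. The ETS letters CCGGAA, found in 21.1% of all and 32.5% of kept promoters, were also in none. These letters are matches, not shown binding sites, and 7 windows are too few to describe the other regions.

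The peaks over these promoters were of varied strength, and the K303R peaks listed varied from one to the next. Strength is given as the summit pileup, the number of overlapping fragments at the peak top. Over the CX3CR1 promoter it was 4 in WT untreated, 15 in WT E2, 8 in Y537S untreated and 10 in Y537S E2, and in K303R no peak untreated, then 9, 4 and 6 with E2, Dox and Dox+E2. Over the HRK promoter the 4 WT and Y537S values were 4, 5, 6 and 9, and K303R had peaks with Dox (4) and Dox+E2 (7) but in neither library without Dox. Over the RHOH promoter they were 3, 7, 20 and 19, with 1 K303R peak of 7 (E2). POGLUT3 had no K303R peak, LENEP had 1 of 4 in Dox+E2, and GRAMD2B had 1 of 8 in the untreated library.

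A single region held a whole microRNA hairpin, MIR2117, whose mature product is printed with its seed (bases 2 to 8) in capitals.
hsa-miR-2117 (RefSeq, hairpin at chr17:43444806-43444885, plus strand): uGUUCUCUuugccaaggacag
The region over it had pileups of 4 and 7 (WT), 12 and 10 (Y537S), and in K303R 6 with E2 and 6 with Dox+E2, with no peak in the other K303R libraries. The expression of this microRNA was not measured.

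The libraries differed in depth, which touches each result below. The lists held 39522 to 133963 peak summits, and the lowest listed pileup was 3 to 5, so regions lacking a peak stayed below roughly this pileup and need not be shut. Fewer cells with an open region and fewer cuts in each cell cannot be told apart in such bulk libraries. The untreated K303R library had the shortest list, and its signal was low: at the 16630 regions open in all 12 libraries the median pileup came to 24.9 backgrounds, where the others reached 47.1 to 102. Peak names carry 3 tags whose meaning is not known here. All Y537S libraries share 1 tag and all K303R libraries another, and peak names of Y537S alone contain "trypsin". Both WT Dox libraries carry a tag that neither WT library without Dox has, so in WT the tag and Dox cannot be told apart. As a check of the cell type, FOXA1, GATA3, SPDEF, ERBB2, KRT8, KRT18 and EPCAM, 7 of 10 luminal markers, had a peak within 1 kb of a gene end in all 12 libraries. The basal genes KRT5, KRT14 and TP63, and VIM, PDGFRB and PECAM1, had none in any, whereas the mesenchymal COL1A1 had one in 11. Of the blood cell genes, PTPRC had a peak in the 4 Y537S libraries only (pileups 6 to 9), and CD3E in 4 libraries (4 to 6), 2 of them Y537S, 1 WT and 1 K303R. The part of these in the results was not tested.

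The 976 regions were weak where they were open. Their median summit pileup was 5 in WT untreated, 8 in WT E2, 9 in Y537S untreated and 11 in Y537S E2. To compare libraries, each pileup was divided by the median of its library over the regions open in all 12 (scaled pileup). On that scale the medians were 0.625, 0.421, 0.290 and 0.324, whereas the 20298 regions with a peak in all 8 WT and Y537S libraries (kept regions) had medians of 0.842 to 0.912 in the same libraries. The weakest peak of a region in those 4 libraries had a −log10 q of 2.30 to 17.1 (median 3.84), as the authors' peak caller gave it, so many regions lay close to the limit of detection.

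The rule had many near misses. A further 2159 regions missed it through the untreated WT library alone, the shortest of the 8 lists, and 371, 212 and 95 through WT E2, Y537S untreated and Y537S E2 alone. On the other side, 601 regions failed only through a peak in WT Dox, whose pileup was 4 to 15 (median 6). Y537S Dox alone kept out 344 regions with pileups of 4 to 14, Y537S Dox+E2 alone 366 with 4 to 13, and WT Dox+E2 alone 48 with 4 to 9. These pileups were read in Dox libraries, where the regions inside the rule have none listed, so both sides cannot be compared directly. Of the regions inside the rule, 145 stood at the lowest pileup listed in WT untreated.

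The strongest regions had clear peaks in WT and Y537S without Dox. The one with the largest smallest −log10 q lay 66.1 kb from an end of MRPL14, a mitochondrial ribosomal protein gene (hg38, chromosome 6, 44046636 to 44048026). Its pileups were 12 in WT untreated, 16 in WT E2, 33 in Y537S untreated and 27 in Y537S E2, and in K303R 15 untreated, 18 (E2), 14 (Dox) and 6 (Dox+E2). K303R thus had a peak here under all 4 treatments, and the Dox+E2 library was the lowest. Below, a pair of values for WT or Y537S stands for untreated and E2, and K303R values follow the order untreated, E2, Dox and Dox+E2.

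A region 6.23 kb from TYRO3, a receptor tyrosine kinase gene (chromosome 15, 41589613 to 41589996), had WT pileups of 11 and 15 and Y537S pileups of 14 and 15, and 9, 8, 10 and 8 in K303R. The K303R libraries with and without Dox overlapped there. A region on chromosome 21 (35356990 to 35357391), more than 100 kb from any gene end, had WT pileups of 10 and 13 and Y537S pileups of 36 and 30, with 14, 16, 9 and 13 in K303R. Inside MIPOL1, a gene that neighbours FOXA1 (chromosome 14, 37262677 to 37263127), the values were 10 and 22, 17 and 25, and in K303R 9, 15, 5 and 6. Both K303R Dox libraries were lower here than both others, on the pileups as listed.

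Inside MME, which encodes neprilysin, a cell-surface peptidase of myoepithelial cells (chromosome 3, 155026877 to 155027621), pileups were 11 and 11 (WT), 19 and 30 (Y537S). K303R had no peak untreated, 8 (E2), 6 (Dox) and 5 (Dox+E2). Inside POU2F3, a transcription factor gene of tuft cells (chromosome 11, 120279177 to 120279909), K303R had 10, 12, 4 and 6. A region 42.5 kb from NKD1, a gene for a Wnt pathway inhibitor (chromosome 16, 50505672 to 50506425), had WT values of 8 and 12, Y537S values of 20 and 36, and 9, 16, 11 and 5 in K303R. Of these, POU2F3 had both Dox values below both others.

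Over the 20 strongest regions, 15 had a peak in all 4 K303R libraries, against 24.1% of the 976, 14.0% of all merged and 81.9% of kept regions. In 7 of the 20 the pileup was lower in both K303R Dox libraries than in both others, and in 1, on chromosome 11 far from genes, it was higher. Over all 976, with no peak taken as 0, the pileup was lower in 114 and higher in 121, where 1.34% and 15.4% of all merged regions were so. The K303R pileups ranged from 5 to 15 untreated (17 peaks), 6 to 18 with E2, 4 to 14 with Dox and 5 to 15 with Dox+E2 (19 peaks each). The groups overlapped across regions.

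**Figure D1:**
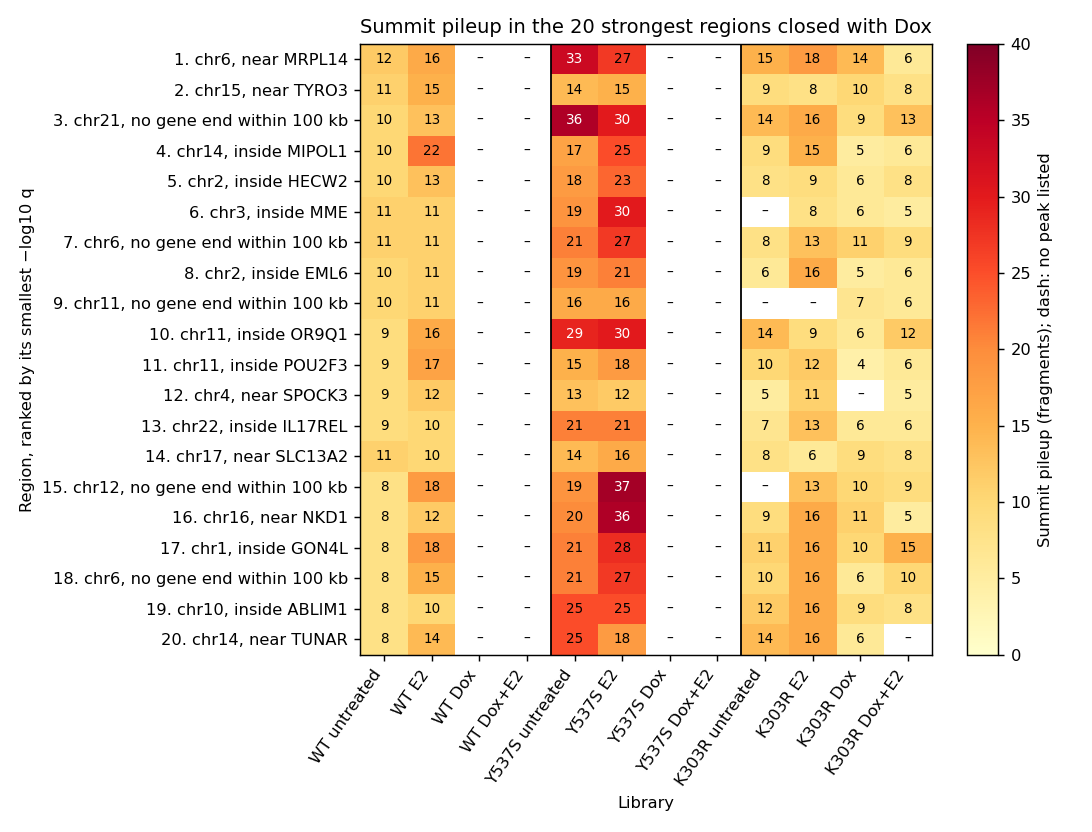
Summit pileup (fragments, colour and number) of the 20 strongest regions closed with Dox in WT and Y537S, one region per line and one library per column, with a dash where no peak is listed. The WT and Y537S Dox columns are empty because the rule asks for it, whereas 15 of 20 regions carry peaks in all 4 K303R columns. Of all 976 regions 24.1% do so, and of all merged regions 14.0%.

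In K303R most of the regions held a peak with Dox. A peak was listed in 327 of 976 in the untreated library (33.5%, exact Clopper-Pearson 95% interval 30.5 to 36.6%), 661 with E2 (67.7%, 64.7 to 70.7%), 706 with Dox (72.3%, 69.4 to 75.1%) and 715 with Dox+E2 (73.3%, 70.4 to 76.0%). Over all merged regions the shares were 17%, 25.1%, 40.9% and 43.8%, and over the kept regions 83.1, 96.5, 99.2 and 99.6%. The intervals cover counting error over regions only. The mean share was 72.8% with Dox against 50.6% without, a difference of 22.2 percentage points, beside 9.59 for kept and 21.3 for all regions. Without the untreated library it was 5.07 points. An exact permutation of the Dox labels over the 4 libraries gave a one-sided p = 1 for a lower share and p = 0.167 for a higher share with Dox, the smallest that 6 arrangements allow.

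That direction turned when the K303R lists were taken at equal length or thinned to equal signal, which leaves their background pileups unequal. With the 976 regions left as they were and each K303R list taken at the length of the shortest (39522 summits, by −log10 p), shares were 33.5, 34.6, 12.2 and 11.6% for untreated, E2, Dox and Dox+E2, a difference of -22.2 points. Separately, for the same 976 regions, the K303R pileups were thinned at random and summits of 5 or more kept. The target was the lowest median pileup among the 12 libraries, 8 in WT untreated, so K303R untreated (11) was thinned as well. Shares were then 25.1, 30.1, 13.0 and 11.8%, a difference of -15.2 points. The kept regions hardly moved in either setting, by 1.49 and 2.74 points, and all regions by -0.835 and 0.957. Of the kept regions, 81.9% belong to the 16630 whose median pileup set the thinning, so little movement there was largely built in. Equal list length likewise holds the share over all regions nearly level. Both K303R libraries without Dox stood above both with Dox in each of these settings, and below both in the lists as deposited. The exact permutation test could again reach no less than 0.167.

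**Figure D2:**
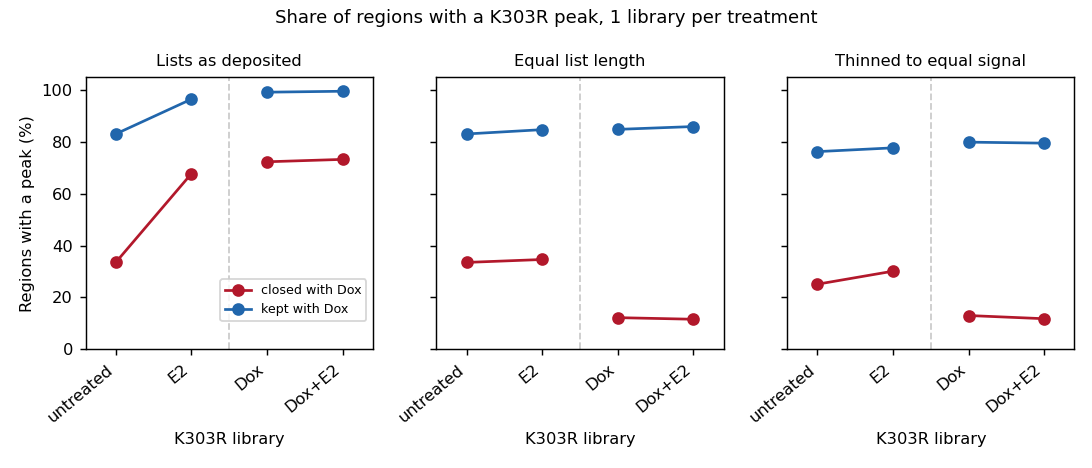
Share (%) of the 976 regions closed with Dox in WT and Y537S and of the 20298 kept regions that hold a K303R peak, by K303R library, from the lists as deposited and from lists of equal length or equal signal. The closed regions go from 50.6% without to 72.8% with Dox as deposited, and from 34.1% to 11.9% and from 27.6% to 12.4% at equal length and equal signal, while the kept regions move by at most 9.59 points, in the first panel.

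The shares were also read within classes of the pileup in Y537S untreated, a library that the rule used. With Dox, K303R had a peak in 66.7% of the 279 regions with a Y537S pileup of 4 to 7, against 95.3% of 342 kept regions of that class. At 8 to 11 the shares were 71.1% and 95.8%, at 12 to 15 they were 72.0% and 97.8%, and at 16 to 23 they were 83.9% and 98.9%. All 18 regions at 24 or more had a K303R Dox peak, which leaves an exact 95% interval of 81.5 to 100%. With Dox+E2 the shares were 63.4% against 96.8% in the lowest class and 82.5% against 99.7% at 16 to 23. With E2 they were 51.6% against 73.1% and 88.3% against 96.2%, and in the untreated library 23.3% against 38.9% and 51.1% against 74.6%. The share was below that of the kept regions in each of the 4 classes up to 23 in all 4 libraries, and these differences were not tested. Kept regions also had to hold a peak in all 8 WT and Y537S libraries. At the same Y537S untreated pileup they can therefore be stronger elsewhere, which by itself favours a higher share.

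The strength of K303R peaks was compared at a scaled pileup of 0.5, which lies above the lowest listed pileup of each library. Of the 976 regions, 30.2% (27.4 to 33.2%) reached it untreated, 34.2% (31.2 to 37.3%) with E2, 16.5% (14.2 to 19.0%) with Dox and 11.6% (9.64 to 13.8%) with Dox+E2. The kept regions stood at 81.4, 84.4, 88.3 and 85.9%. The regions closed in WT and Y537S were thus fewer above this level in both K303R Dox libraries than in both others, by 18.2 points on average, while the kept regions did not fall. The scale was set on 81.9% of the kept regions, so their level on this scale was largely fixed by it. The size depended on the settings. The difference was -8.35 and -3.38 points at scaled pileups of 0.75 and 1, and -10.9 without WT untreated in the rule. With peaks below a −log10 q of 10 dropped, 297 regions met the rule and the value was +10.8. The difference in regions with a peak had the same value there, so this setting tells nothing more about strength. For a lower share at a scaled pileup of 0.5, an exact permutation over the 4 libraries gave a one-sided p = 0.167, the smallest it can give. Scaled to the background pileup instead (at 30 times it), the shares were 1.23, 45.9, 27.6 and 41.9%, so the mean difference turned to +11.2 points with the untreated library and was -11.2 points against E2 alone. On that scale the kept regions stood at 28.4, 90.3, 92.6 and 97.0%.

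**Figure D3:**
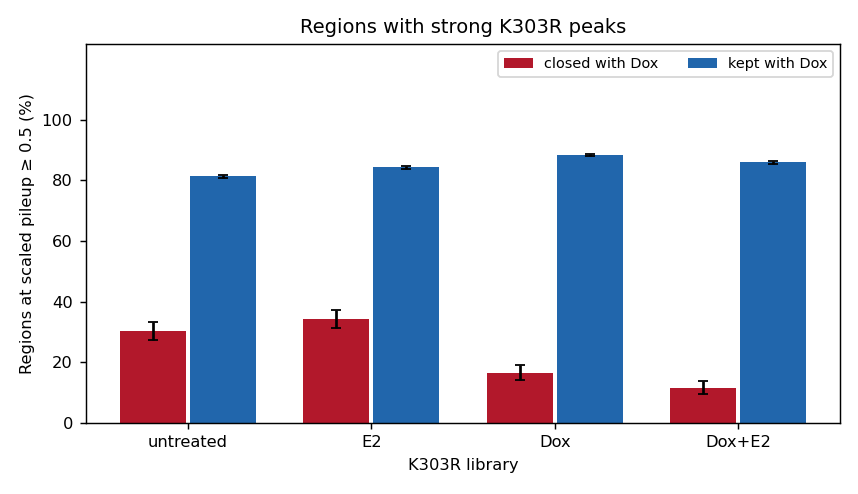
Share (%) of regions whose K303R summit pileup was at least 0.5 of the library median over regions open in all 12 libraries, for the 976 regions closed with Dox in WT and Y537S and the 20298 kept regions, with exact 95% intervals that cover counting error. The closed regions stand at 30.2 and 34.2% without Dox and at 16.5 and 11.6% with Dox, and the kept regions at 81.4 to 88.3%.

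A peak in all 4 K303R libraries was listed in 24.1% of the 976 regions, against 14.0% of all merged and 81.9% of kept regions. These 235 regions allow the same peak to be followed. In 156 of them (66.4%) the scaled pileup was lower in both Dox libraries than in both others, and in 4 (1.70%) it was higher. Once scaled, the lowest listed pileup was 0.455 (untreated), 0.267 (E2), 0.188 (Dox) and 0.176 (Dox+E2). A weak region therefore needed a higher scaled value without Dox to be among the 235. This alone favours lower values with Dox, and its part in the 66.4% was not tested. The 235 regions lie closer to these limits than the kept regions, so the ratios below are affected too. Over all 23284 regions with 4 K303R peaks, 25.8% were lower and 15.6% higher. The median ratio of the scaled pileup with Dox to that without was 0.599 in the 235 regions and 1.00 in the kept regions, and against E2 alone it was 0.682 and 1.04. The kept regions with 4 K303R peaks are the 16630 regions that set the scale, so their ratio near 1 follows from it. Scaled to the background, 6 of the 235 (2.55%) were lower and 41 (17.4%) higher, with a median ratio of 1.08 against 1.75 in the kept regions, and of 0.792 against 1.21 beside E2 alone. The ratio of the 235 regions was below that of the kept regions on both scales, whereas its side of 1 depended on the scale and on the untreated library. The scales differ only by a constant for each library, so the comparison with the kept regions is nearly the same on both. These ratios were not tested, as an exact permutation over 4 libraries cannot go below p = 0.167.

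Complete loss in K303R with the pattern of the rule was rare in the deposited lists. A peak untreated and with E2 and none in either Dox library was seen in 4 of 976 regions (0.410%), against 0.0799% of all merged regions. One lay 0.149 kb from ADAM30, a testis-expressed metalloprotease gene, and 18.2 kb from NOTCH2, a receptor gene of the Notch pathway (chromosome 1, 119893199 to 119893722), with pileups of 4 and 13 (WT), 18 and 23 (Y537S) and 9 and 9 in K303R. Another lay 5.39 kb from GUCA2A, the guanylin gene (chromosome 1, 42169586 to 42170333), with 5 and 8, 9 and 12, and 7 and 10. The other two were on chromosome 20, more than 100 kb from a gene end, at 53778037 to 53778630 (K303R 6 and 7) and 24194231 to 24194503 (K303R 5 and 6). With all lists at equal length 159 of 1363 regions (11.7%) had this pattern, against 2.64% of all regions, and with all thinned 55 of 509 (10.8%) against 1.86%.

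The opposite K303R pattern, peaks in both Dox libraries and in neither other, was seen in 83 of 976 regions (8.50%), a share near the 8.54% of all merged regions. A region 3.16 kb from EPHA2, an ephrin receptor gene (chromosome 1, 16121035 to 16121451), had pileups of 8 and 9 (WT), 16 and 19 (Y537S) and, in K303R, 7 with Dox and 7 with Dox+E2. Regions 61.7 kb from GRB10, an adaptor gene of insulin receptor signalling, and inside GRAMD2A had K303R values of 5 and 5 each. Inside KCNMA1, a calcium-activated potassium channel gene, they were 6 and 6, and 52.1 kb from PHLDA1 5 and 7. The K303R peaks at EPHA2, GRB10, GRAMD2A, KCNMA1 and PHLDA1 were thus 5 to 7. A region on chromosome 6 (10140572 to 10141409) had higher ones, 13 with Dox and 11 with Dox+E2. At equal list length 9 of 1363 (0.660%) had this pattern, against 2.58% of all regions, and thinned 10 of 509 (1.96%) against 2.63%.

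No K303R peak at all was listed in 69 regions (7.07%), against 42.8% of all merged and 0.0345% of kept regions. The strongest lay 6.54 kb from SIRPA, which encodes an inhibitory receptor of myeloid cells (chromosome 20, 1887237 to 1887769), with pileups of 7 and 15 (WT), 10 and 12 (Y537S). Regions inside ZDHHC22 (5 and 15, 15 and 16) and inside UBE2L6, which encodes an enzyme that attaches the interferon-induced protein ISG15 (5 and 8, 13 and 9), and 72.4 kb from AGTR1, the angiotensin II receptor gene (5 and 7, 16 and 14), were of the same kind. Another 232 regions (23.8%) had peaks in K303R with E2 and in both Dox libraries but not in the untreated one, against 7.15% of all merged and 13.8% of kept regions.

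The regions lay far from gene ends. A summit fell within 1 kb of an end of a protein-coding gene in 29 (2.97%, exact 95% interval 2.00 to 4.24%), against 40.1% of kept regions, 10.9% of all regions and 3.11% of the 4758 regions with the reverse pattern in WT and Y537S (gained regions). The median distance to a gene end was 39.7 kb, against 3.46 kb for kept, 27.0 kb for gained and 21.6 kb for all regions. A summit outside genes with no gene end within 100 kb was found in 217 (22.2%), against 5.03% of kept, 14.6% of gained and 13.6% of all regions. The share inside genes was 45.9%, beside 47.4, 53.0 and 52.4%. No test over regions was made.

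**Figure D4:**
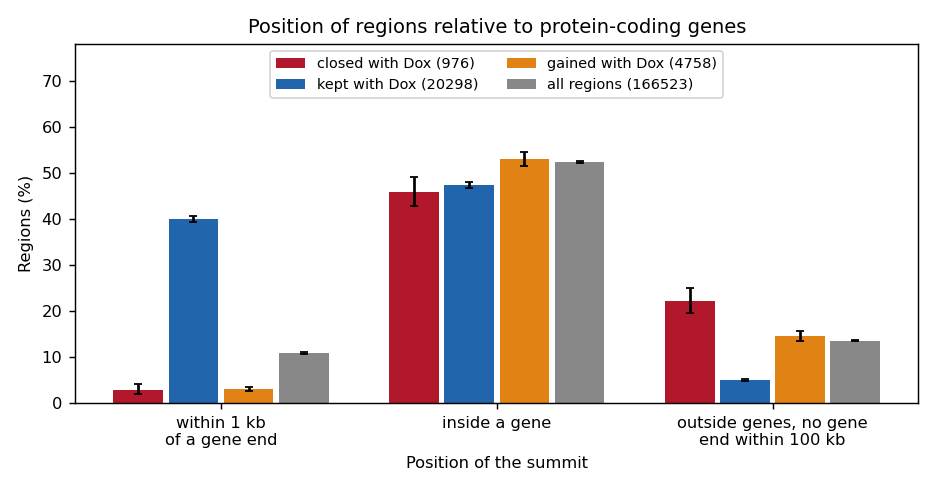
Share (%) of regions by the position of the summit relative to protein-coding genes, for regions closed with Dox, kept and gained in WT and Y537S and for all merged regions, with exact 95% intervals that cover counting error. Regions closed with Dox are at 2.97% within 1 kb of a gene end, beside 40.1% of kept regions, and at 22.2% in stretches outside genes with no gene end within 100 kb.

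Some of the 29 regions lay near an end of genes of known regulators, and which end of the gene it was is not told here. None of the genes named in this paragraph is among those whose promoter window overlapped a region closed with Dox. At USP2, a deubiquitinase gene (0.119 kb, chromosome 11, 119355157 to 119355564), pileups were 8 and 21 (WT), 16 and 19 (Y537S), and 8, 17, 9 and 15 in K303R. At CCND3, the cyclin D3 gene (0.016 kb, chromosome 6, 41934819 to 41935523), they were 6 and 10, 9 and 14, and 12, 14, 10 and 9. K303R had peaks under all treatments at both genes, with overlapping values at USP2. Near RNF2, which encodes a ubiquitin ligase of polycomb repressive complex 1 (0.941 kb), K303R had no peak untreated and 9, 4 and 6 otherwise. At FOXP4, a forkhead transcription factor gene (0.595 kb), K303R had a single peak of 5, with E2. TFAP2B, a transcription factor gene of luminal cells, had a region at 0.724 kb with pileups of 4 and 5 (WT), 12 and 8 (Y537S) and, in K303R, 7 with Dox and 5 with Dox+E2 alone. Other peaks within 1 kb of an end of TFAP2B were listed with Dox and Dox+E2, with pileups of 8 and 7 in WT and 9 and 10 in Y537S.

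The regions were narrower than kept regions, and few lay within 50 kb of another. Their median width was 488 bp (164 to 1439), against 1106 bp for kept, 673 bp for gained and 315 bp for all merged regions. Another region closed with Dox lay within 50 kb of 76 (7.79%, 6.18 to 9.65%). The share was not far from the 5.48% of all merged regions, beside 6.11% for kept and 4.64% for gained regions. A region gained with Dox lay within 50 kb of 17.0% (14.7 to 19.5%), beside 25.6% of kept and 25.2% of all regions, and of 48.7% of the gained regions themselves. Chromosome 19, which is dense in genes, held 2 of the 976 (0.205%) against 3.16% of all and 4.54% of kept regions. Chromosome 6 held 79 (8.09%) against 4.95% of all and 5.26% of kept regions.

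A few genes had several such regions. Of 19974 protein-coding genes, 1156 (5.79%) had a region closed with Dox within 50 kb of their span, and 12 genes had 3. SLC60A2 had 3 among 5 regions of any kind, CPNE8 3 among 8 and REV3L, which encodes the catalytic subunit of a translesion DNA polymerase, 3 among 15. SLC60A2 and REV3L are neighbours on chromosome 6, so their windows share regions. ITGB6, the integrin beta-6 gene, had 3 among 28, RAPGEF5 3 among 21 and SAMD5 3 among 17. None of SLC60A2, CPNE8, SAMD5, RAPGEF5 and ITGB6 had a gained region in the same window, whereas AGAP1 had 4 and PLEKHA6 2. CACNA1G, a calcium channel gene, and ABCC3, a drug transporter gene, lie side by side on chromosome 17 and had 3 each.

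Gene lists of pathways and cell types were read against that 5.79%. Over 17 lists with 404 different genes, 40 (9.90%) had a region closed with Dox within 50 kb, and the listed genes also outran all genes at 20 kb (7.43% against 3.67%) and at 100 kb (13.6% against 9.08%). The lists hold many long genes with many regions around them, so the comparison is not adjusted for that. The TGF-beta and BMP list had 5 of 20, where the median gene had 20 regions of any kind, against 12 for all genes. The estrogen response list had 1 of 40, where the median gene had 22 regions, and 27 of its 40 genes had a gained region, beside 24.3% of all genes.

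In the TGF-beta group the ligand gene TGFB2 held a region inside it with pileups of 5 and 7 (WT), 9 and 7 (Y537S), and 8, 6, 4 and 6 in K303R. Inside the receptor gene TGFBR2 they were 5 and 12, 8 and 10, and in K303R 6 untreated, none (E2), 7 (Dox) and 8 (Dox+E2). Inside SMAD3, a signal transducer, they were 6 and 5, 7 and 9, and K303R had 8 untreated alone. The K303R lists thus varied over TGFB2, TGFBR2 and SMAD3, with pileups of 4 to 8 where the lowest listed were 3 to 5. A difference between these genes was not tested. Inside SMAD7, which encodes an inhibitor of the pathway, pileups were 8 and 7 in the WT libraries and 7 and 10 in the Y537S libraries, and K303R had 6 with Dox and 6 with Dox+E2 alone. ID3, a target that inhibits basic helix-loop-helix factors, was the other gene of the list with a region, 39.0 kb away.

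PKIB, an inhibitor of protein kinase A, was the estrogen response gene with a region closed with Dox, 46.6 kb away (chromosome 6, 122772732 to 122773117). Its pileups were 4 and 13 (WT), 12 and 14 (Y537S), and K303R had a single peak of 6, with E2. A gained region also lay within 50 kb of PKIB.

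The neural lists came next in share, with 4 of 23 glutamate and GABA receptor genes and 5 of 29 axon guidance and neural adhesion genes. Inside GRIK4, a kainate receptor gene, the stronger of 2 regions had 7 and 13 (WT), 30 and 34 (Y537S), and 10, 23, 7 and 8 in K303R, with both Dox libraries below both others. GRIN2A, GRIN2B, GRIK3, NCAM1, NCAM2, NTNG1 and PLXNA2 were among the other genes of these lists with a region.

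In the signalling lists, SPRED2, an inhibitor of RAS signalling, had a region inside it with 7 and 11 (WT), 13 and 12 (Y537S), and 8, 8, 7 and 5 in K303R. NRG3, a ligand of ERBB4, had 6 and 10, 11 and 11, and 10, 24, 9 and 8. Both had their 2 lowest K303R values with Dox. TGFA, a ligand of the epidermal growth factor receptor, had 2 regions within 50 kb. Of the Notch list, NOTCH2, the coactivator MAML2 and HES2 had one each, and of the Wnt list WNT5B and TCF7. Near WNT5B (42.0 kb) K303R had no peak untreated and 9, 7 and 5 otherwise, and near TCF7 (6.03 kb) a single peak of 10, untreated.

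The basal list had 3 of 20, with MME and CDH3 among them, and the androgen response and apocrine list 3 of 27 (GGT1, SORD and CLDN8). The lists of luminal transcription factors (2 of 21), lipid and steroid metabolism (2 of 23), interferon response (2 of 24) and Wnt signalling (2 of 25) stood no higher than 9.52%. Housekeeping genes had 2 of 25, cell cycle genes 1 of 25, where CDKN1A had a region 42.4 kb away, and immediate early and AP-1 genes 1 of 23. The mesenchymal list had 1 of 20, MMP2, and the list of NF-kB and cytokine genes 0 of 20. IFITM1 and IFITM3 counted through 1 shared region, as did GGT1 and SNRPD3. Over the 38 different regions that were the strongest at a listed gene, 12 had peaks in all 4 K303R libraries, against 24.1% of the 976 regions. With no peak taken as 0, the K303R pileup was lower in both Dox libraries than in both others in 8 of the 38, and higher in 7. Of all merged regions 1.34% were so lower and 15.4% higher.

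**Figure D5:**
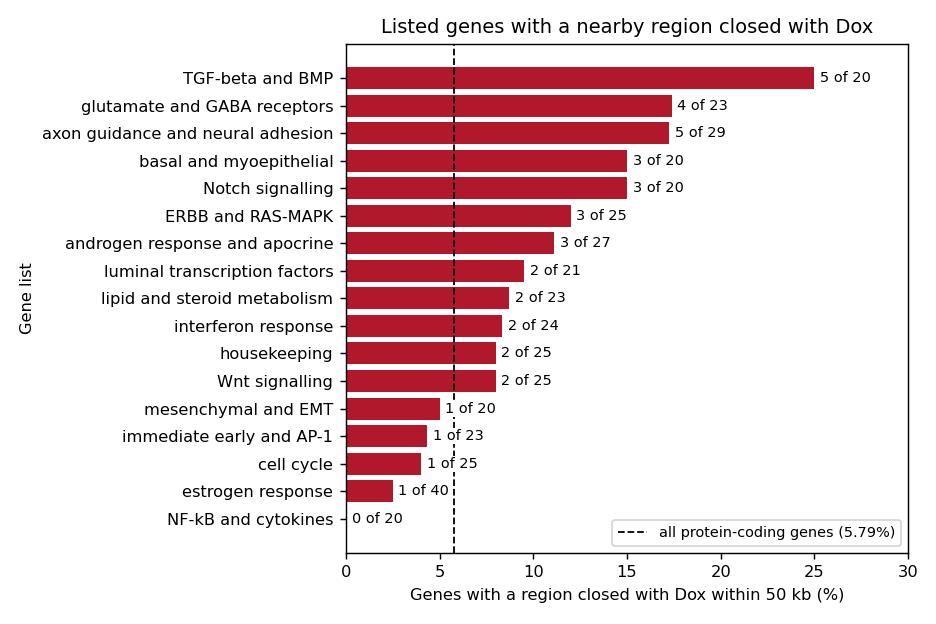
Share (%) of the genes of each list with a region closed with Dox in WT and Y537S within 50 kb of their span, with counts beside the bars and the share of all protein-coding genes (5.79%) as a dashed line. The TGF-beta and BMP list is at 5 of 20 and the estrogen response list at 1 of 40.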

How the data were processed

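ATAC-seq peak lists of 12 libraries, 1 per ER form and treatment, were used. The submitters' processing notes name MACS2, Bowtie2, Picard, SAMtools and FastQC, with hg38; versions, settings and any read shift are not stated there. The deposited score and the deposited −log10 p and −log10 q belong to single summits. The deposited fold is the ratio of summit pileup plus 1 to background plus 1, and whole pileups were recovered from it (largest deviation 0.000715). Peaks were merged at 1 bp of overlap with Python 3.11.15, pandas 2.3.3, numpy 2.4.6 and scipy 1.17.1. Intervals are exact Clopper-Pearson, and labels were permuted exactly over the 4 K303R libraries. Gene spans came from RefSeq (GRCh38.p14), without strand or exons, so distances are to either gene end. Regions were named, by rule, as the strongest of all, per K303R pattern and near gene ends, by the gene around or nearest within 100 kb. Listed genes followed the same order of strength. The regions and gene lists were chosen with earlier results of these data known. Alternatives were stricter q values, equal list length, thinning, summit windows, wider overlap, other gene windows and single libraries left out. Nothing in the labels says that cultures were independent, so a p-value speaks only of these libraries. Depth is given by the background pileup, as read totals were not used. The steps were tested on simulated data. Sequences of regions away from promoters are not used here. Results for some listed genes are not reported here.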

Additional observations from a re-analysis of the deposited data

Results flagged for a closer look

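In 83 of the 976 regions that lost their peak with Dox in WT and Y537S, both K303R Dox libraries had a listed peak and neither K303R library without Dox had one, the reverse of the WT and Y537S lists. In 4 regions the K303R lists held the same pattern as WT and Y537S. A peak not listed is no measured move. For the same 976 regions the 2 patterns made up 0.717% and 11.4% with the K303R lists at equal length, and 0.820% and 8.09% thinned to equal signal (chosen after seeing the data). Over all regions with a peak they made up 1.07% and 1.09% at equal length, and 1.26% and 0.890% thinned. The difference between the forms was not tested, as there is 1 library per form and treatment, and 83 as deposited is a share near that of all merged regions.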

How the results depend on the processing

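The number of regions meeting the rule was 297 at a −log10 q of 10 or more, 509 with lists thinned to equal signal, 579 with pileups of 5 or more (chosen after seeing the data), and 1024 to 3135 without single WT or Y537S libraries (3135 without WT untreated, 1577 without WT Dox).

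The K303R difference with Dox in regions with a peak (22.2 points) was 9.78 and 10.8 at a −log10 q of 5 and 10, 6.04 with pileups of 5 or more, 25.5 with peaks covering 50% of a region, 18.3 in the stronger regions and 5.07 to 26.0 without single libraries (5.07 without K303R untreated). It reversed to -21.6 at equal list length and -19.4 thinned, and for the same 976 regions to -22.2 and -15.2 (chosen after seeing the data). These alternatives match list length or signal, not background pileup.

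The K303R difference in strong peaks (-18.2 points) was -12.2 at a −log10 q of 5 and reversed to 10.8 at 10, where weaker peaks count as absent. At 10 it had the same value as the difference in regions with a peak, so it tells nothing more about strength there. The difference in strong peaks was -21.2 with pileups of 5 or more, -14.8 with peaks covering 50% and -24.5 in the stronger regions. It was -8.35 and -3.38 at scaled pileups of 0.75 and 1, and -20.2 to -10.9 without single libraries (-10.9 without WT untreated). It reversed to 11.2 scaled to the background, and was -11.2 on that scale without K303R untreated. The cause was not tested. Thinning gave no separate value, as its lowest pileup lies above 0.5.

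The share near a gene end was 4.26% at equal list length, 6.45% within 2500 bp and 2.68 to 3.44% without single libraries. Listed genes with a region numbered 21 at a −log10 q of 10, 68 at equal list length, 25 with pileups of 5 or more, and 41 to 116 without single libraries (116 without WT untreated). Paired by E2 within K303R (chosen after seeing the data), the difference with Dox in regions with a peak was 38.8 without and 5.53 points with E2, and in strong peaks -13.7 and -22.6. Depth limits all of these results.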
